A study of Mus musculus with 4 samples.

Results

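The 10 genes described here encode proteins that move ions and water across the colonic epithelium. They are the water channels Aqp1, Aqp4 and Aqp8, the chloride/bicarbonate exchanger Slc26a3, the sodium bicarbonate cotransporter Slc4a4, the proton pump subunit Atp12a, the chloride channel Cftr, the sodium channel subunit Scnn1a and the sodium pump modulators Fxyd3 and Fxyd4. They were taken by symbol from a table of 30360 genes, each symbol matched 1 row, and all 10 were detected.

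RNA of single cells was counted in cultures of mouse colonic organoids (colonoids), epithelial structures grown in Matrigel from the distal colon of mice that the labels give as 16 weeks old. The donors were wildtype (C57BL/6 in the study's methods) or whole-body Tnfr2-/- mice, which lack tumor necrosis factor receptor 2, and cultures were left untreated or given TNF (20 ng/ml), starting 1 day and ending 6 days after the passage numbered 5. Cells were harvested 7 days after that passage and dead cells removed by Annexin V binding, and 10x 3′ sequencing gave 1 library from 1 culture for each of the 4 groups. Where 4 values follow one another, they are in the order wildtype untreated, wildtype TNF, Tnfr2-/- untreated, Tnfr2-/- TNF. Because there was 1 library for each group, no test between groups could be made and no p-value is given. Intervals in parentheses are at 95% and hold the error of counting alone, so differences between cultures or mice lie outside them. Intervals of CPM, of ratios and of shares of UMIs also leave out unevenness between the cells of a class.

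The colon takes up sodium, chloride and water at its surface and secretes chloride and fluid from its crypts. Mature surface colonocytes carry the absorptive machinery, in which sodium enters through channels and exchangers and chloride enters by exchange for bicarbonate, while crypt cells take up chloride and bicarbonate at their base and release them through Cftr at their tip. FXYD proteins are small membrane proteins that tune the sodium pump, the enzyme that powers both directions of transport.

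The sequences just upstream of the RefSeq starts of 3 of the genes are shown because Aqp8 and Slc26a3 had the largest differences between libraries and Cftr followed another class of cells. They are from RefSeq on GRCm38.p6, the build of all positions given, are written 5′ to 3′ on the plus strand and end before the first annotated exon. The Aqp8 stretch lies at chr7:123462044-123462290 and the gene at chr7:123462291-123468004.
Aqp8: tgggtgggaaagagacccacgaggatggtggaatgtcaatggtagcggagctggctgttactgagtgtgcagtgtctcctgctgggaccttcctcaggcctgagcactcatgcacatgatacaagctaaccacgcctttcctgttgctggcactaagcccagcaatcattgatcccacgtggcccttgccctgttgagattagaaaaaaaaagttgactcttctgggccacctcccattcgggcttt
The Slc26a3 stretch lies at chr12:31437969-31438216, inside the longer gene model at chr12:31390871-31473917, and the capitals mark a TATA box (TATAAA).
Slc26a3: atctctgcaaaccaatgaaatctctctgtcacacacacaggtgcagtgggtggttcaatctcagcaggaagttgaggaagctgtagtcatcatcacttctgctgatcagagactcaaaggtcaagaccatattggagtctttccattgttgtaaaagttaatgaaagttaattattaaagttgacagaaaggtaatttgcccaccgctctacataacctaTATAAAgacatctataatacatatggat
The Cftr stretch lies at chr6:18170437-18170686 and the gene at chr6:18170687-18322768.
Cftr: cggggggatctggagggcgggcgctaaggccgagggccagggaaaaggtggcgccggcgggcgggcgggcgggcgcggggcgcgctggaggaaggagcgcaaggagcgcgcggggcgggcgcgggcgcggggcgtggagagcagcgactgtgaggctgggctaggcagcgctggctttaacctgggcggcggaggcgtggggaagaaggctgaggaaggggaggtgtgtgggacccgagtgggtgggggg
Within 250 bases before the start, TATAAA on either strand was in 12.4% of 32851 RefSeq promoters, and in 1 of 8 promoters that 7 of the 10 genes had in the table. CNATAAA, the core of the CDX motif, was in 9.81% of all promoters, CAAAGTC, an HNF4 core, in 3.84% and GGANTTTCC, an NF-kB motif, in 1.07%. None of these 3 strings was in the 8 promoters of the transporters. Other forms of these sites were not searched for, so their absence is not shown.

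The 4 libraries held 2589, 1469, 1117 and 980 cells, of which 1128, 1163, 1023 and 858 were in the 7 epithelial classes the authors deposited. The epithelial cells held between 39776200 and 50648198 unique molecular identifiers (UMIs, counted RNA molecules) per library, with a median of 30306 to 41057 per cell. Levels are given as CPM, the UMIs of a gene summed over a class and scaled to the same total in each, and 3 UMIs in an epithelial sum are 0.0592 to 0.0754 CPM. The class shares differed strongly: Absorptive cells were 319, 19, 11 and 1, Progenitor.1 cells 546, 335, 647 and 95, and Progenitor.2 cells 62, 273, 233 and 716. Classes with under 20 cells in a library are given as values only, without a difference. Tnfrsf1b, the gene that the knockout targets, was at 4.17, 12.1, 1.82 and 6.89 CPM in epithelial cells, and tags from the 3′ end do not check a deletion whose place the labels do not give. Sex-linked transcripts differed with genotype in the same cells, with Xist at 558, 683, 0.158 and 0.101 CPM and 4 Y-linked genes at 5.33, 29.4, 0.079 and 0.151 CPM. Both kinds were present in the wildtype libraries and near 0 in the Tnfr2-/- ones, so they give no plain sex for either genotype, and their part in the differences by genotype was not tested. The mesenchymal share of cells was 55.2%, 20.8%, 8.06% and 12.4%. Only 3 cell barcodes, in 6 cells, occurred in more than 1 library.

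Among the genes, Aqp8, Slc26a3, Atp12a, Fxyd4 and Scnn1a, were highest in Absorptive cells and next highest in Progenitor.2 cells of the untreated wildtype library. Cftr, Aqp4 and Aqp1 were highest in Progenitor.1 cells there. Slc4a4 stood apart, with its highest epithelial level in Progenitor.2 in all 4 libraries and a further site in mesenchyme, and Fxyd3 was found in every epithelial class. The Absorptive label held by the sum of its markers: the 8 absorptive colonocyte markers, among them Car1, Car4 and Krt20, summed to 14480 CPM in untreated wildtype Absorptive cells, 4952 in Progenitor.2 and 824 in Progenitor.1. Later levels of these markers are the same sum, which can rest on a few of its genes. Guca2a, 1 of the 8, was at 19.4 CPM without and 96.8 CPM with TNF in wildtype epithelium, where Absorptive cells were 319 and 19.

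**Figure D1:**
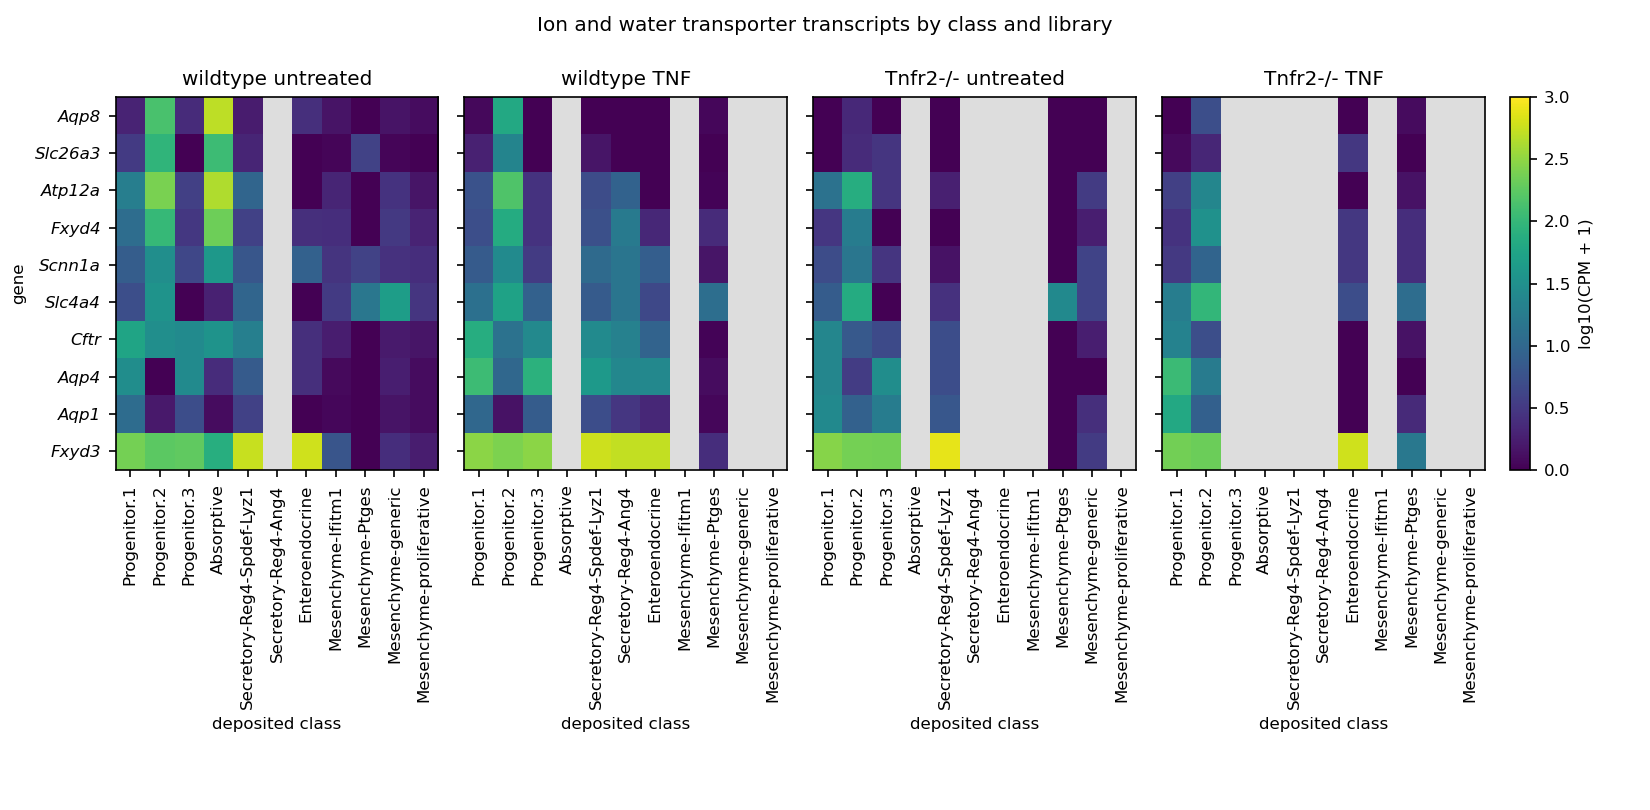
CPM of the 10 genes (rows) in the 11 deposited classes (columns) of the 4 libraries (panels), coloured by log10(CPM + 1), with classes under 20 cells in grey. In the untreated wildtype library Aqp8 reached 501 CPM in Absorptive and 138 CPM in Progenitor.2, while Fxyd3 was at 75.8 CPM or more in each epithelial class shown.

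Aqp8, the main water channel of the surface colonocyte, was at 501 CPM (490 to 512) in the 319 untreated wildtype Absorptive cells, with 8046 UMIs. Progenitor.2 cells of that library held 138 CPM (120 to 156), and no other class of that library with 20 cells or more exceeded 1.53 CPM. The intervals of Absorptive and Progenitor.2 did not overlap, and those of all lower classes overlapped with each other. In the few Absorptive cells of the other libraries Aqp8 was at 285 CPM (19 cells), 119 CPM (11 cells) and 0 CPM (1 cell, which allows up to 87.8 CPM).

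Slc26a3, which exchanges luminal chloride for bicarbonate, was at 114 CPM (108 to 119) in untreated wildtype Absorptive cells and at 90.5 CPM (76.7 to 106) in Progenitor.2. These 2 neighbours had counting intervals that did not overlap. However, 7 of the 62 Progenitor.2 cells held 90.1% of the 152 UMIs there, so the order of the 2 is not settled. The next epithelial class, Progenitor.1, was at 2.24 CPM. In the small Absorptive groups of the other libraries the levels were 219, 57.5 and 238 CPM, the last from 10 UMIs in 1 cell, so the remaining Absorptive cells still held Slc26a3 in each library.

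Atp12a, the catalytic subunit of the non-gastric proton/potassium pump that reclaims potassium in the distal colon (chr14:56365068-56388550), was at 438 CPM (427 to 448) in Absorptive cells and 251 CPM (228 to 276) in Progenitor.2 of the untreated wildtype library. Progenitor.1 followed at 18.2 CPM. The Absorptive cells of the other libraries held 549, 386 and 119 CPM, so Atp12a was present in them as well. Atp12a had a UMI in 95% of the 319 untreated wildtype Absorptive cells, the widest detection of the 5 genes there.

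Fxyd4, a modulator of the sodium pump known from the distal colon and kidney collecting duct (chr6:117933559-117937692), was at 217 CPM (210 to 224) in Absorptive and 102 CPM (87.7 to 119) in Progenitor.2 cells of the untreated wildtype library. In the other Absorptive groups it was at 30.1, 304 and 0 CPM. Fxyd4 therefore was lower in the 19 Absorptive cells of the wildtype TNF library than in the 319 untreated ones, where Slc26a3 was higher, in groups too small for a difference. Scnn1a, the alpha subunit of the epithelial sodium channel (chr6:125320659-125344943), was at 39.1 CPM (36.1 to 42.3) and 29.8 CPM (22.1 to 39.3) in the same 2 classes, whose intervals overlapped. Its Absorptive levels elsewhere were 56.7, 31.5 and 0 CPM.

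The cells that held these transcripts differed between libraries. Of the epithelial UMIs of Aqp8, 96.8% (96.4 to 97.2) came from Absorptive cells in the untreated wildtype library and 23.5% (21.0 to 26.2) in the wildtype TNF library, where Progenitor.2 held 76.2%. In the Tnfr2-/- TNF library all 144 UMIs of Aqp8 came from Progenitor.2. Of the Atp12a UMIs, 88.1%, 19.2%, 14.7% and 0.637% were in Absorptive cells and 5.29%, 76.0%, 50.6% and 97.2% in Progenitor.2, so in the untreated Tnfr2-/- library most were outside Absorptive cells. The 11 Absorptive cells of the untreated Tnfr2-/- library, 1.07% of its epithelial cells, still held 83.1% (72.9 to 90.7) of its 77 Aqp8 UMIs, 67.4% (52.0 to 80.5) of its 46 Slc26a3 UMIs and 40.0% (35.2 to 44.9) of its 410 Fxyd4 UMIs.

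**Figure D2:**
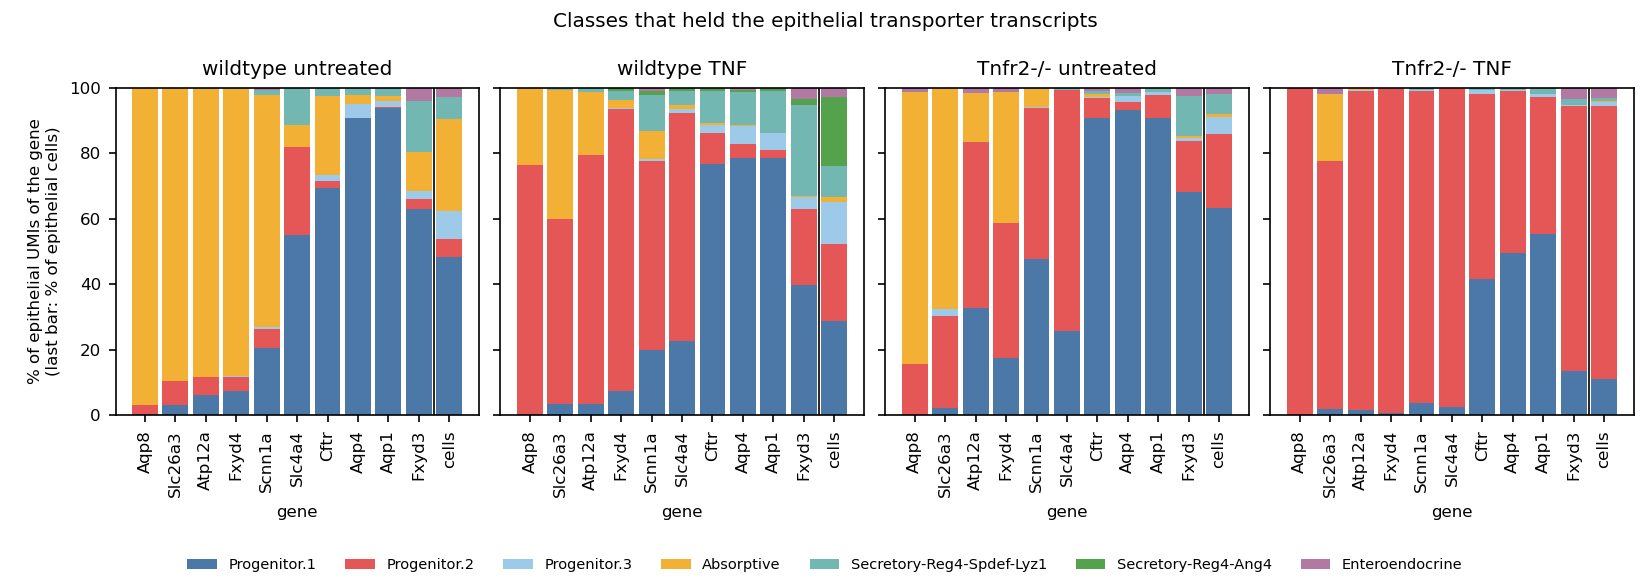
Share of each gene's epithelial UMIs held by each class (stacked bars, %), in 4 panels for the libraries, with the share of epithelial cells by class as the last bar. Absorptive cells held 96.8% of the Aqp8 UMIs in the untreated wildtype library and none of the 144 in the Tnfr2-/- TNF library.

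Cftr, the chloride channel of crypt secretion, was at 55.4 CPM (52.7 to 58.2), 72.6 CPM (68.8 to 76.6), 23.1 CPM (21.6 to 24.8) and 20.7 CPM (16.9 to 25.0) in Progenitor.1, its highest class in each library. Both Tnfr2-/- libraries were below both wildtype libraries. In the untreated wildtype library Absorptive (33.3 CPM), Progenitor.2 (29.2 CPM) and Progenitor.3 (26.6 CPM) followed with overlapping intervals. Progenitor.1 is a class with cycling cells, in which Mki67, Top2a, Birc5 and Ube2c summed to between 701 and 1129 CPM, while in Progenitor.2 they summed to between 11.9 and 44.9 CPM.

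Aqp4, a water channel of the basolateral membrane, was at 28.5 CPM (26.5 to 30.5), 112 CPM (107 to 117), 23.0 CPM (21.5 to 24.6) and 111 CPM (102 to 120) in Progenitor.1. Both TNF libraries were above both untreated ones. Progenitor.3 did not differ from Progenitor.1 beyond counting error in either untreated library, at 25.9 and 28.3 CPM. In Absorptive cells of the untreated wildtype library Aqp4 was at 1.43 CPM, from 23 UMIs.

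Aqp1, a water channel otherwise known from endothelium, red cells and kidney tubule (chr6:55336432-55348555), was at 10.5 CPM (9.32 to 11.8), 9.03 CPM (7.71 to 10.5), 25.6 CPM (24 to 27.2) and 63.2 CPM (56.5 to 70.4) in Progenitor.1. The 2 wildtype libraries overlapped, and each Tnfr2-/- library was above both. The 5 endothelial markers summed to 0 to 0.383 CPM in these cells, with Cdh5 and Kdr at 0 in all 4 libraries, and the 4 glial markers to 0.390 to 0.953 CPM, with Sox10 and Gfap at 0. The 3 erythroid markers were at 0 in Progenitor.1.

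Slc4a4, which loads bicarbonate and sodium across the basolateral membrane (chr5:88886818-89239653), was at 33.9 CPM (25.7 to 44.0), 52.6 CPM (48.7 to 56.7), 69.1 CPM (64.0 to 74.5) and 96.7 CPM (93.4 to 100.1) in Progenitor.2. These levels stood in that order with counting intervals that did not overlap. In the untreated wildtype library 7 of 62 cells held 89.5% of the 57 UMIs, so these intervals do not settle its place in the order. In Progenitor.1 it was at 4.2, 11.8, 6.51 and 17.6 CPM, higher in both TNF libraries than in both untreated ones. Absorptive cells of the untreated wildtype library held 0.872 CPM, from 14 UMIs, the reverse of the order of Aqp8 and its companions.

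Outside the epithelium, Slc4a4 was at 46.4 CPM (42.0 to 51.0) in the 393 Mesenchyme-generic cells of the untreated wildtype library, its highest class there, with an interval that overlapped that of Progenitor.2. The 51 cells of that class in the untreated Tnfr2-/- library held 3.05 CPM (0.832 to 7.82). In the Mesenchyme-Ptges class it was at 14.6, 11, 25.2 and 10.7 CPM. The other 9 genes were at 14.9 CPM or less in the summed mesenchymal cells of each library, and 8 of them at 1.84 CPM or less.

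Fxyd3, a sodium pump modulator of many epithelia (chr7:31068172-31076704), was at 560 CPM (533 to 588), 598 CPM (579 to 617) and 780 CPM (745 to 816) in the Secretory-Reg4-Spdef-Lyz1 class of the first 3 libraries, where that class had 63 cells or more. Enteroendocrine cells held 611, 527, 710 and 599 CPM, the third of these from 18 cells. The intervals of these 2 classes overlapped in the untreated wildtype library and not in the wildtype TNF library, where the enteroendocrine level was the lower. Progenitor.1 (233, 303, 282 and 231 CPM) and Progenitor.2 (176, 257, 238 and 209 CPM) were lower in each library, and untreated wildtype Absorptive cells lowest of the epithelial classes at 75.8 CPM (71.6 to 80.2). The Secretory-Reg4-Ang4 class, which had 246 cells in the wildtype TNF library and none elsewhere, held 536 CPM at a median of 1957.5 UMIs per cell.

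The labels cross genotype with TNF, so genotypes were compared here within a treatment and TNF with no TNF within a genotype, which makes 4 comparisons of 2 libraries each, and each library enters 2 of them. A difference is log2(CPM + 1) in one library minus that in the other, and a gene was counted as higher or lower where it was at least 2-fold and reached 20 CPM in 1 of the 2 libraries. A gene that reaches the minimum only where it is high is bound to differ, so the counts over the 10 genes describe them and support nothing further. The added 1 CPM makes differences of low genes smaller. In untreated epithelial cells, 5 of the 10 genes (Aqp8, Slc26a3, Atp12a, Cftr and Fxyd4) were lower in Tnfr2-/-, against 3.59% of the 6021 genes that reached 20 CPM, and 1 (Aqp1) was higher, against 2.42%. The median difference was -1.31 over the 10 genes and 0.11 over all genes that reached the minimum. Aqp4, Slc4a4 and Scnn1a stayed under 20 CPM in both libraries. Aqp1, at 20.5 CPM just above the minimum in Tnfr2-/-, no longer passed with TMM factors (1.49 on the log2 scale), median-of-ratios factors (1.48) or a pseudocount of 10 CPM (0.92), and neither did Cftr with that pseudocount (-0.92).

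In untreated epithelial sums Aqp8 was at 165 CPM in wildtype and 1.52 CPM in Tnfr2-/-, 109-fold lower (86.8 to 138). Slc26a3 was at 40.6 and 0.908 CPM, 44.6-fold lower (33.4 to 61.2), and Atp12a at 159 and 27.9 CPM, 5.69-fold lower (5.38 to 6.03). Fxyd4 was at 78.7 and 8.10 CPM, 9.72-fold lower (8.78 to 10.8). The absorptive colonocyte markers moved beside them, with a sum of 5275 CPM in the untreated wildtype and 586 CPM in the untreated Tnfr2-/- epithelium, and all 8 were detected in Absorptive cells of both libraries. Without the Absorptive class the log2 differences were -2.79 for Aqp8 (-6.04 with it), -2.50 for Slc26a3 (-4.45), -0.20 for Atp12a (-2.47) and -1.34 for Fxyd4 (-3.13). None of the 4 passed the rule. Atp12a was under 2-fold, while Aqp8, Slc26a3 and Fxyd4 were still past 2-fold but under 20 CPM in both libraries.

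**Figure D3:**
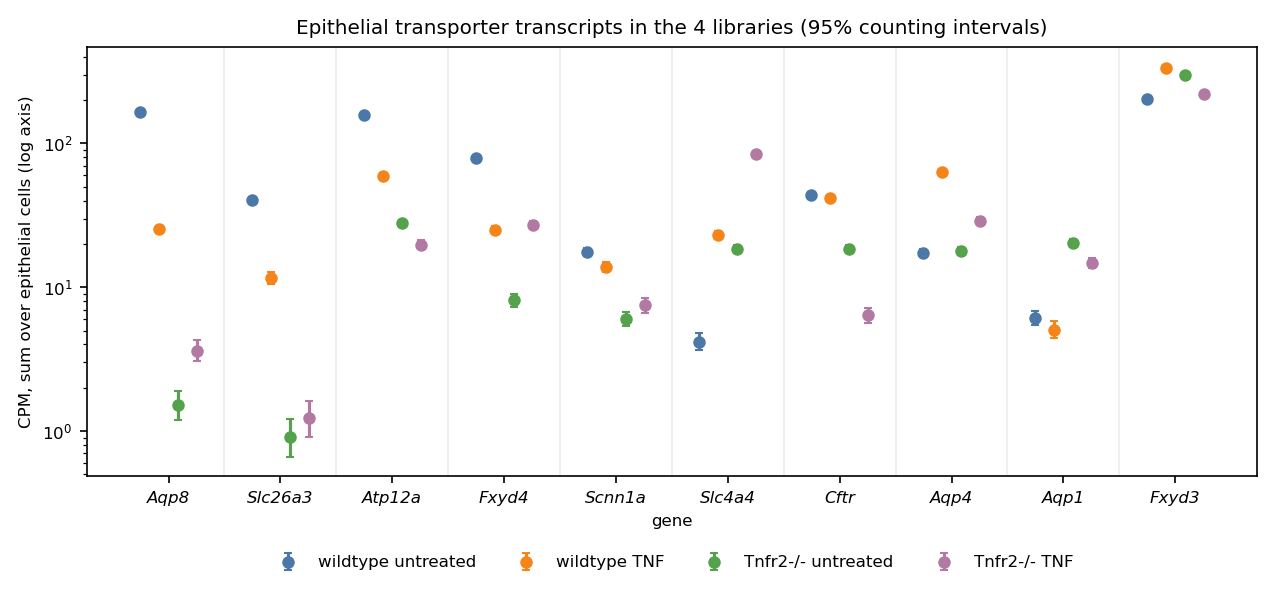
CPM of each gene over all epithelial cells of a library (points, log axis) with 95% counting intervals (bars), for the 4 libraries. Aqp8 ran from 165 CPM in the untreated wildtype library to 1.52 CPM in the untreated Tnfr2-/- library, and Slc4a4 from 4.19 to 84.5 CPM with the Tnfr2-/- TNF library highest.

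Within Progenitor.2, 6 of the 10 genes (Aqp8, Slc26a3, Atp12a, Cftr, Scnn1a and Fxyd4) were lower in untreated Tnfr2-/- cells, against 3.66% of genes, and Slc4a4 was higher, against 4.32%. Aqp8 was at 138 and 1.21 CPM, 114-fold lower (63.8 to 223), and Slc26a3 at 90.5 and 1.31 CPM, 69.0-fold lower (39.2 to 133). Cftr was 4.99-fold lower (3.34 to 7.42), Scnn1a 2.108-fold lower (1.495 to 2.931) and Slc4a4 2.04-fold higher (1.55 to 2.72) in the same cells. Scnn1a and Slc4a4 lay close to the 2-fold line, from 50 and 57 wildtype UMIs, with intervals that reached below it. The wildtype side of this comparison is 62 cells with a median of 15574.5 UMIs, against 233 cells with 33685. For each gene, the top 7 of those 62 cells held 96.1% of the 231 Aqp8 UMIs and 90.1% of the 152 Slc26a3 UMIs. The intervals of these 2 ratios leave that unevenness out. The absorptive markers in Progenitor.2 were at 4952 CPM in wildtype and 1225 CPM in Tnfr2-/-, with 8 of 8 detected in both, and their part in the result was not tested.

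Within Progenitor.1, Cftr was lower in untreated Tnfr2-/- cells, against 1.1% of genes, and Aqp1 was higher, against 1.15%. Cftr was 2.39-fold lower (2.20 to 2.61) there and 2.37-fold lower (2.20 to 2.56) in the epithelial sum, so the difference was of like size in the class that holds most Cftr and over all cells. Aqp1 was 2.44-fold higher (2.13 to 2.79) in Progenitor.1 and 3.33-fold higher (2.93 to 3.79) in the sum. Aqp8 had 28 UMIs in wildtype and 0 in Tnfr2-/- Progenitor.1 cells, 12.4-fold lower against a floor of 3 UMIs, at levels near 1 CPM. The 95% counting limit of the ratio was 9.44-fold, and 14 of the 28 UMIs lay in 1 cell.

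In the TNF libraries, 4 genes (Aqp4, Aqp8, Atp12a and Cftr) were lower in Tnfr2-/- epithelium than in wildtype, against 6.37% of 6073 genes, and Slc4a4 was higher, against 5.04%. Cftr was at 41.7 and 6.39 CPM, 6.54-fold lower (5.73 to 7.49). Aqp8 was at 25.3 and 3.62 CPM, 6.99-fold lower (5.87 to 8.38). Slc4a4 was at 23.2 and 84.5 CPM, 3.65-fold higher (3.4 to 3.93). Aqp4 lay close to the 2-fold line and no longer passed with a pseudocount of 10 CPM (-0.91), TMM factors (-0.95), median-of-ratios factors (-0.95) or the mean over cells (-0.95), and was at 0.14 without Progenitor.2. Without that class Slc4a4 was at 0.64 and Aqp8 at -3.28, the latter under 20 CPM, as it was without the Absorptive class (-2.17). Slc26a3 was 9.40-fold lower (7.00 to 12.9) but stayed under 20 CPM in both libraries, at 11.6 and 1.23 CPM. Fxyd4 was at 24.9 and 27.3 CPM, a ratio of 1.10 (1.01 to 1.20).

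Inside Progenitor.2 with TNF, 5 genes (Aqp8, Slc26a3, Atp12a, Scnn1a and Fxyd4) were lower in Tnfr2-/-, against 4.93% of genes, and none was higher, against 2.99%. Here the wildtype side was 273 cells with a median of 39167 UMIs and the Tnfr2-/- side 716 cells with 37713.5. Aqp8 was 14.7-fold lower (12.3 to 17.7), Slc26a3 19.5-fold lower (13.8 to 28.3) and Atp12a 6.52-fold lower (5.99 to 7.10). Fxyd4 was 2.19-fold lower (2.00 to 2.40) within Progenitor.2, although its epithelial sums were alike. The absorptive markers were at 2827 and 1038 CPM in these cells, with 8 of 8 detected in both, and their part in the result was not tested. Slc4a4 was 1.84-fold higher (1.69 to 2.00) in Tnfr2-/- Progenitor.2, under the 2-fold rule, and Aqp1 was at 0.394 and 7.23 CPM, 18.3-fold higher (7.75 to 57.0) but under 20 CPM.

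Inside Progenitor.1 with TNF, Cftr was lower in Tnfr2-/-, against 2.04% of genes, and Aqp1 was higher, against 1.29%. Cftr was 3.51-fold lower (2.88 to 4.32) and Aqp1 6.99-fold higher (5.78 to 8.49). Aqp4 was at 112 and 111 CPM, a ratio of 0.991 (0.902 to 1.09), while its epithelial sum was 2.18-fold lower (2.04 to 2.34) in Tnfr2-/-. Progenitor.1 was 28.8% of epithelial cells in the wildtype TNF library and 11.1% in the Tnfr2-/- TNF library.

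With TNF in wildtype, 4 genes (Aqp8, Slc26a3, Atp12a and Fxyd4) were lower in the epithelial sum than without, against 1.08% of 5833 genes, and 2 (Aqp4 and Slc4a4) were higher, against 2.54%. Aqp8 was at 165 and 25.3 CPM, 6.53-fold lower (6.12 to 6.97), and Fxyd4 at 78.7 and 24.9 CPM, 3.16-fold lower (2.95 to 3.39). Aqp4 was at 17.2 and 63.0 CPM, 3.66-fold higher (3.38 to 3.95). Slc4a4 was at 4.19 and 23.2 CPM, 5.53-fold higher (4.76 to 6.45). Absorptive cells were 28.3% of the epithelium without TNF and 1.63% with it. Without that class the log2 differences of the 4 lower genes changed sign, to 1.25 for Aqp8, 0.15 for Slc26a3, 0.80 for Atp12a and 0.78 for Fxyd4. None of them passed the rule, Aqp8 because it was under 20 CPM and the others because they were under 2-fold. Slc4a4 no longer passed with the mean over cells (1.84) or without Progenitor.2 (1.42), where it stayed under 20 CPM.

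Within wildtype Progenitor.2, Aqp8, Slc26a3 and Cftr were lower with TNF, against 3.18% of genes, and no gene of the 10 was higher by the rule, against 4.28%. Aqp8 was 2.19-fold lower (1.88 to 2.54), Slc26a3 4.24-fold lower (3.45 to 5.19) and Cftr 2.31-fold lower (1.64 to 3.20). Absorptive markers in these cells were at 4952 and 2827 CPM. On the untreated side the top 7 of 62 cells for each gene held 96.1% of the Aqp8 and 90.1% of the Slc26a3 UMIs, which the intervals leave out. Aqp4 had 0 UMIs without and 115 UMIs with TNF, 5.07-fold higher against a floor of 3 UMIs, at 9.07 CPM with TNF. The 95% counting limit of the ratio was 4.06-fold.

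Within wildtype Progenitor.1, Aqp4 was higher with TNF, against 1.84% of genes. Only 3 of the 10 genes reached 20 CPM there, and none of these was lower by the rule, against 0.615%. Under that minimum, Atp12a was at 18.17 CPM without and 4.654 CPM with TNF (-1.761 on the log2 scale). Fxyd4 was at 10.71 and 4.216 CPM (-1.167), and Slc4a4 went the other way, at 4.198 and 11.83 CPM (1.303). Aqp4 was 3.93-fold higher (3.62 to 4.27) there, close to its difference in the epithelial sum. The share of Progenitor.1 cells with a UMI of Aqp4 was 34.8% without and 75.8% with TNF, and 12.5% and 36.1% once each cell was thinned to 5000 UMIs. In mesenchymal cells the thinned share was 0.141% and 0.336%.

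With TNF in Tnfr2-/-, Slc4a4 and Fxyd4 were higher in the epithelial sum, against 5.55% of 6143 genes, and none of the 10 was lower by the rule, against 7.81%. Slc4a4 was at 18.4 and 84.5 CPM, 4.61-fold higher (4.28 to 4.96), and Fxyd4 at 8.10 and 27.3 CPM, 3.37-fold higher (3.01 to 3.79). Cftr was 2.89-fold lower (2.52 to 3.34) but under 20 CPM in both. Within Progenitor.1 Cftr was at 23.1 and 20.7 CPM, a ratio of 0.893 (0.723 to 1.09). Progenitor.2 was 22.8% of the epithelium without TNF and 83.4% with it. Without that class Fxyd4 was at -1.21 and Slc4a4 at 1.31 on the log2 scale. Neither passed the rule, since both genes were then under 20 CPM.

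Within Tnfr2-/- Progenitor.2, Atp12a was lower with TNF, against 1.14% of genes, and none was higher, against 0.844%. Atp12a was at 72 and 22.6 CPM, 3.19-fold lower (2.87 to 3.53). Slc4a4 was 1.40-fold higher (1.29 to 1.52) and Fxyd4 1.87-fold higher (1.59 to 2.21) within the class, both under 2-fold. Absorptive markers were at 1225 and 1038 CPM.

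Within Tnfr2-/- Progenitor.1, Aqp1 and Aqp4 were higher with TNF, against 1.08% of genes, and none was lower, against 0.933%. Aqp4 was 4.82-fold higher (4.32 to 5.36) and Aqp1 2.47-fold higher (2.17 to 2.81). The TNF side is 95 cells with 5128068 UMIs. In the epithelial sum, in which Progenitor.1 was 63.2% of cells without and 11.1% with TNF, Aqp4 differed by 0.66 and Aqp1 by -0.45 on the log2 scale.

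**Figure D4:**
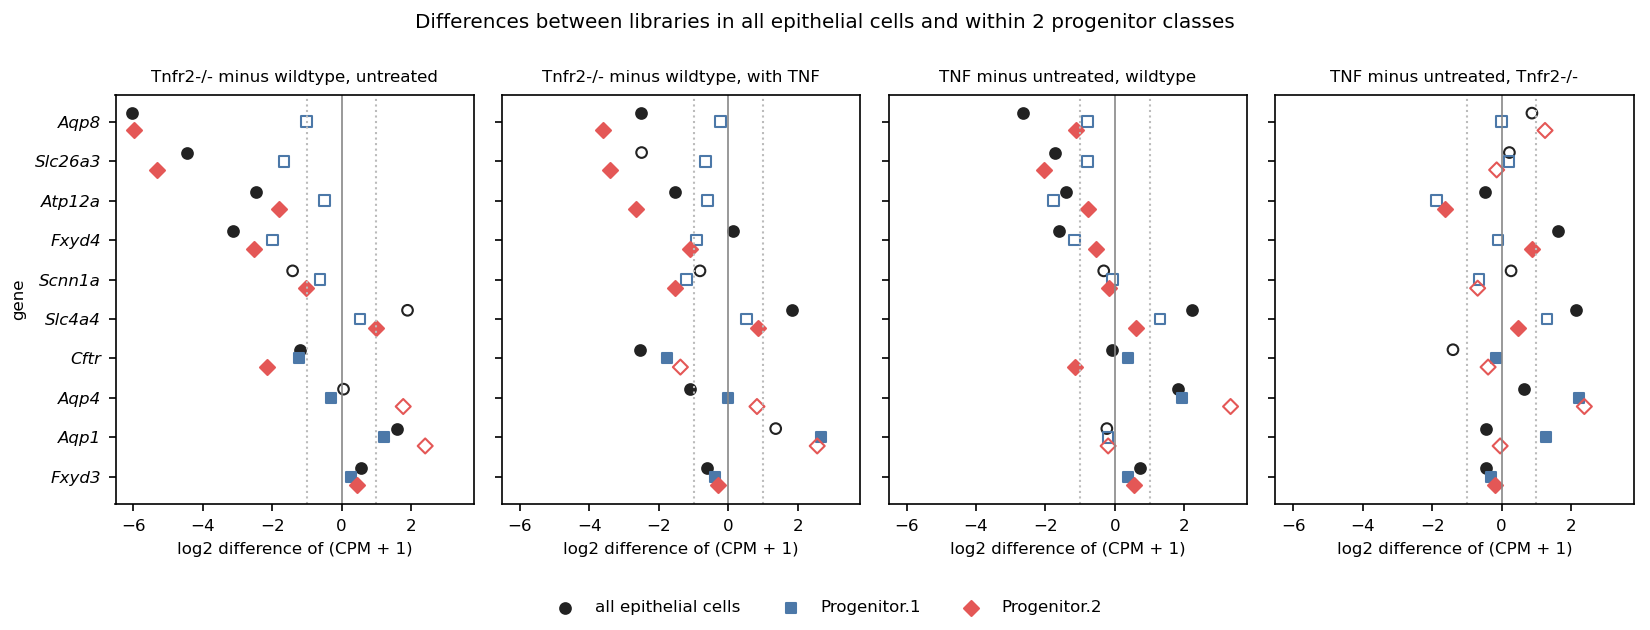
Log2 differences of (CPM + 1) for the 10 genes in the 4 comparisons (panels), over all epithelial cells (circles), in Progenitor.1 (squares) and in Progenitor.2 (diamonds). Open symbols had under 20 CPM in both libraries and dotted lines mark 2-fold. Aqp8 lay at -6.04 over all untreated epithelial cells and at -5.97 within Progenitor.2, while Aqp4 with TNF lay at -1.10 over all cells and at -0.01 within Progenitor.1.

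Cells of one class were uneven in these transcripts. In untreated wildtype Progenitor.2, 7 of 62 cells held 96.1% of the 231 Aqp8 UMIs, 90.1% of the 152 Slc26a3 UMIs and 53.1% of the 422 Atp12a UMIs. In untreated wildtype Absorptive cells, the top 32 of 319 cells held 60.6% of Aqp8 and 30.1% of Atp12a UMIs. Aqp8 had no UMI in 80.6% of those Progenitor.2 cells and 44.2% of those Absorptive cells, and Atp12a in 33.9% and 5.02%. In the Tnfr2-/- TNF library 72 of 716 Progenitor.2 cells held 48.8% of the 3264 Slc4a4 UMIs and 88.9% of the 763 Atp12a UMIs.

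After thinning to 5000 UMIs, Aqp8 was detected in 16.1% (7.62 to 28.3), 14.4% (10.5 to 19.2), 0.889% (0.108 to 3.17) and 1.41% (0.677 to 2.58) of Progenitor.2 cells, and before thinning in 19.4%, 23.1%, 1.29% and 3.07%. The thinned share in mesenchymal cells, which should lack it, was 0.212% in the untreated wildtype library and 0 of 298, 86 and 120 cells in the others, which allows up to 1.01%, 3.49% and 2.50%. With so few mesenchymal cells the shares cannot separate Tnfr2-/- Progenitor.2 from that background. In summed UMIs, Aqp8 was at 4.27 CPM (3.60 to 5.02) in Tnfr2-/- TNF Progenitor.2 and at 0.210 CPM (0.00531 to 1.17) in the mesenchymal cells of that library. Cftr was detected in 22.5%, 32.2%, 9.78% and 7.45% of thinned Progenitor.1 cells, and in 77.3%, 87.8%, 55.2% and 52.6% before thinning. Slc4a4 was detected in 8.93%, 14.1%, 18.7% and 30.0% of thinned Progenitor.2 cells, beside 5.15%, 4.70%, 4.65% and 5.83% of mesenchymal cells, a class that holds the transcript itself.

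Detection of the genes in the same thinned cell was compared within a class and library, as a description of those cells. In untreated wildtype Absorptive cells, Slc26a3 was found in 51.7% (42.4 to 60.9) of the 120 cells with Aqp8 and in 14.7% (10.1 to 20.4) of the 197 without. Atp12a was found in 90.8% of the cells with Aqp8 and 62.4% of those without. Fxyd4 was found in 39.2% (30.4 to 48.5) and 31.0% (24.6 to 37.9), with intervals that overlapped. For Slc26a3 and Atp12a the intervals of cells with and without Aqp8 did not overlap.

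Slc4a4 had the opposite relation. In Tnfr2-/- TNF Progenitor.2 cells, Atp12a was found in 1.41% (0.291 to 4.06) of the 213 cells with Slc4a4 and in 9.86% (7.38 to 12.8) of the 497 without, and Fxyd4 in 3.29% (1.33 to 6.65) and 11.7% (8.98 to 14.8). In the untreated Tnfr2-/- library Atp12a was found in 0 of 42 cells with Slc4a4 (up to 8.41%) and in 18.0% (12.7 to 24.4) of the 183 without. In the wildtype TNF library the intervals overlapped, at 18.4% and 33.2% for Atp12a. In both Tnfr2-/- libraries the share with Atp12a was lower among cells that held Slc4a4, by intervals that did not overlap.

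**Figure D5:**
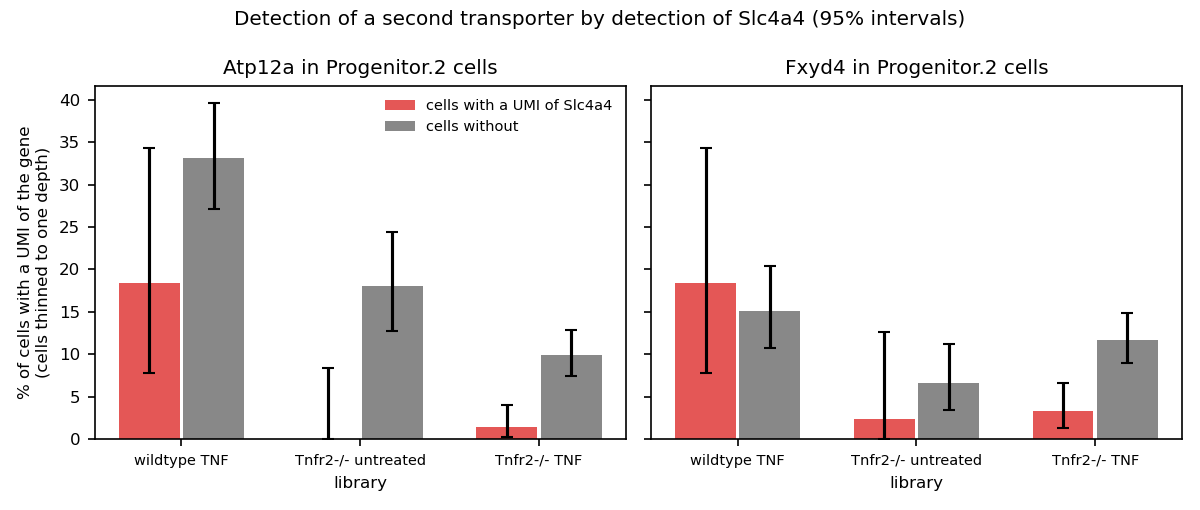
Share of Progenitor.2 cells with a UMI of Atp12a (left) or Fxyd4 (right) among cells with (red) and without (grey) a UMI of Slc4a4, after thinning to 5000 UMIs, with 95% exact binomial intervals. In the Tnfr2-/- TNF library the Atp12a shares were 1.41% and 9.86%, and the untreated wildtype library had only 5 Progenitor.2 cells with Slc4a4 and is not drawn.

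In Progenitor.1 the crypt genes showed no such relation in the untreated wildtype library. Cftr was found in 27.9% (17.7 to 40.2) of the 68 cells with Aqp4 and in 21.8% (18.1 to 25.7) of the 478 without. Aqp4 was found in 9.38% of the 32 cells with Aqp1 and in 12.6% of the 514 without. The intervals overlapped in both pairs.

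Of 63 further genes of ion and water transport, 62 were found by symbol and 25 to 28 reached 20 CPM, depending on the comparison. In untreated epithelium 5 of 28 were lower in Tnfr2-/-, against 3.59% of all genes that reached the minimum, and 2 were higher, against 2.42%. With TNF 5 of 28 were lower, against 6.37%, and 5 higher, against 5.04%. With TNF in wildtype 3 of 26 were higher, against 2.54%, and none lower, against 1.08%, and in Tnfr2-/- 3 of 25 were higher, against 5.55%, and 2 lower, against 7.81%. Their medians lay between 0.04 and 0.18 on the log2 scale, beside -0.12 to 0.11 over all genes that reached 20 CPM.

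Among the regulators of the sodium channel, Hsd11b2, which shields the mineralocorticoid receptor from glucocorticoids, was at 36.4, 19.5, 5.57 and 1.33 CPM, so both Tnfr2-/- libraries were below both wildtype ones, as for Scnn1a (17.6, 13.9, 6.00 and 7.47 CPM). Nr3c2, the mineralocorticoid receptor, was at 30.0, 26, 13.7 and 13.8 CPM. Sgk1, a kinase that raises channel activity, was at 151, 78, 182 and 206 CPM. The channel-activating proteases St14 (65.6, 71.0, 92.1 and 162 CPM) and Prss8 (13.0, 12.4, 14.2 and 27.3 CPM) ran the other way from Hsd11b2, with the Tnfr2-/- TNF library highest. Slc26a2, a sulfate transporter of the Slc26a3 family, was at 154, 114, 57.6 and 99.8 CPM. Slc4a2, an anion exchanger, was at 23.0, 23.7, 36.4 and 54.4 CPM. Slc4a7, a sodium bicarbonate cotransporter like Slc4a4, was at 66.0, 159, 79.9 and 76.8 CPM, highest in the wildtype TNF library where Slc4a4 was highest in the Tnfr2-/- TNF library.

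Guca2b, a peptide hormone that opens Cftr through guanylate cyclase C, was at 31.5, 240, 11.7 and 17.8 CPM, and Guca2a, its relative and one of the absorptive markers, at 19.4, 96.8, 7.46 and 11.2 CPM. Their receptor Gucy2c was at 24.7, 21.3, 14.1 and 6.56 CPM, lowest in the Tnfr2-/- TNF library, as was Cftr. Clic5, of the chloride intracellular channel family, was at 24.3, 32.7, 11.3 and 46.1 CPM. Among potassium channel genes Kcnq1 was at 32.8, 44.2, 73.9 and 65.9 CPM and Kcne3, its partner subunit, at 21.8, 26.5, 29.1 and 10.6 CPM. Kcnn4, a calcium-activated potassium channel, was at 47.5, 45.0, 62.9 and 29.1 CPM. Fxyd5, of the same family as Fxyd3 and Fxyd4, was at 5.88, 9.99, 22.9 and 54.9 CPM, higher in both Tnfr2-/- libraries. Bsg, which carries monocarboxylate transporters to the membrane, was at 762, 940, 561 and 1567 CPM.

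The genes whose log2(CPM + 1) was most like each transporter were ranked by Pearson's r over 27 sums of class and library with at least 20 cells, among 10113 genes. The sums share libraries and classes, so r is a description only. Aqp8 was nearest to Cyp4f14 (0.96), Tmigd1 (0.96) and Tm6sf2 (0.94), and Slc26a3 to Aqp8 (0.92), Tmigd1 (0.91) and Cyp4f14 (0.91). Atp12a was nearest to Dmbt1 (0.95), Ces2c (0.95) and Agpat2 (0.94), and Fxyd4 to Dmbt1 (0.95), Atp12a (0.92) and Muc16 (0.92). Scnn1a was nearest to Cyp2j6 (0.90), Dgka (0.89) and Capn13 (0.89). All of these had their highest sum in untreated wildtype Absorptive cells except Muc16, which had it in Progenitor.2 of that library.

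Aqp4 was nearest to Nox1 (0.96), Clca3b (0.89) and Kcne3 (0.88), which all had their highest sum in wildtype TNF Progenitor.1. Cftr was nearest to Acsm3 (0.97), Dapk2 (0.91) and Sh2d4a (0.90), and Aqp1 to Jaml (0.88), Afap1l1 (0.86) and Pthlh (0.85). Fxyd3 was nearest to Cd24a (0.99), Esrp1 (0.98) and Smim22 (0.98). Slc4a4 had the lowest of these values, with Tnfrsf23 (0.81), Fam129b (0.80) and Cttnbp2nl (0.78), which had their highest sums in Tnfr2-/- Progenitor.2.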

How the data were processed

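The authors deposited whole-number UMI counts per gene and cell with a class for each cell. Per the methods, these counts came from Cell Ranger (5.0.0, genome build mm10, in the submitters' processing notes) and monocle3, with a minimum of 100 UMIs per cell (the lowest deposited cell held 894) and removal of epithelial-mesenchymal doublets. No doublet caller was run here. The methods describe mesenchymal cells as filtered out, but the deposited cells include them. The labels and the methods name different sequencers. A cell's library was read from its deposited genotype and treatment.

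UMI counts were summed by class and library and scaled to CPM (Python 3.11.15, pandas 2.3.3, scipy 1.17.1). Sums carry exact Poisson intervals, shares exact Clopper-Pearson intervals and ratios exact conditional intervals, all at 95%. PCR and culture variation are outside them, as is unevenness between cells for sums and ratios. With 1 library per group there was no test. Thinning to 5000 UMIs left out 405 shallower cells (56, 298, 37 and 14 by library). The 35 cells without a class entered no class. Positions and sequences came from GENCODE M21 and RefSeq on GRCm38, with 30240 of 30360 identifiers matched. Levels of different genes are not compared, since 3′ counts depend on the gene's end.

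The transporters, the other transport genes and the marker lists were chosen with earlier results of these data known. All 10 are named, as are, per role, up to 4 other transport genes past the 2-fold rule with the largest differences, and the 3 genes most like each. Prss8, the fifth of its role, was named after its values were seen. The call was run on simulated Poisson counts with planted changes larger than 2-fold and no variation between cells or cultures. That run checks the computation only and says nothing on the calls made here. The same values were recomputed with TMM factors (edgeR 4.0.16), median-of-ratios factors, a pseudocount of 0.1 or 10 CPM, the mean over cells, cells with at least 2000 UMIs, thinning to 2000 UMIs, no minimum level and leaving out the Absorptive class. Leaving out Progenitor.2 was added after the data were seen.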

Additional observations from a re-analysis of the deposited data

Results flagged for a closer look

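In epithelial sums the difference made by TNF had opposite signs in the genotypes for 5 of the 10 transporters, each from single libraries, and the difference between genotypes was not tested. For Scnn1a (-0.32 in wildtype and 0.27 in Tnfr2-/- on the log2 scale) all 4 libraries were under 20 CPM, and for Slc26a3 (-1.72 and 0.23) the counting interval in Tnfr2-/- included no difference. The other 3 are Aqp8 (1.52 and 3.62 CPM in Tnfr2-/-, under the minimum), Fxyd4 and Fxyd3 (0.73 and -0.45, both under 2-fold). There, the TNF difference in Tnfr2-/- minus that in wildtype was 3.53 for Aqp8, 3.26 for Fxyd4 and -1.18 for Fxyd3 on the log2 scale. Within Progenitor.2 it was 2.37 for Aqp8, 1.41 for Fxyd4 and -0.73 for Fxyd3, so the sign was the same at smaller size. Within Progenitor.1 it was -0.67 for Fxyd3. Within Progenitor.2 alone the signs in wildtype and Tnfr2-/- were also opposite for Aqp8 (-1.12 and 1.25), Fxyd4 (-0.55 and 0.86) and Fxyd3 (0.54 and -0.19). They were the same there for Slc26a3 (-2.03 and -0.14) and Scnn1a (-0.18 and -0.69). In epithelial sums without the Absorptive class the TNF differences in wildtype and Tnfr2-/- had the same sign for Aqp8 (1.25 and 1.88) and Slc26a3 (0.15 and 0.61). The same held for Scnn1a (0.71 and 0.33) and Fxyd4 (0.78 and 2.26), but not for Fxyd3 (0.39 and -0.46).

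The 35 cells without a deposited class, which entered no comparison, also held the transporters. In the 31 such cells of the untreated wildtype library the levels were 5.24 CPM for Aqp1, 12.4 CPM for Aqp4, 62.4 CPM for Aqp8, 19.5 CPM for Slc26a3 and 7.15 CPM for Slc4a4. There, Atp12a was at 81.5 CPM, Cftr at 21.5 CPM, Scnn1a at 8.10 CPM, Fxyd3 at 131 CPM and Fxyd4 at 73.9 CPM. In the 4 such cells of the untreated Tnfr2-/- library Aqp1 was at 11.3 CPM, Atp12a at 17.0 CPM, Cftr at 22.7 CPM and Fxyd3 at 215 CPM. These cells had a median of 66566 and 88648 UMIs, above the other classes of their libraries.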

How the results depend on the processing

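A difference counts here as past the rule only if it is at least 2-fold and reaches 20 CPM, so some were lost by level alone. Of 19 differences of the transporters past the rule in epithelial sums, 16 to 19 remained so with the same sign under other pseudocounts, scalings, the mean over cells or a minimum of 2000 UMIs. Without the Absorptive class 10 did, and in wildtype with TNF the differences of Aqp8 (1.25), Slc26a3 (0.15), Atp12a (0.80) and Fxyd4 (0.78) changed sign. Without Progenitor.2, a setting added after seeing the data, 13 did, and Aqp4 (0.14, Tnfr2-/- minus wildtype with TNF) and Fxyd4 (-1.21, TNF in Tnfr2-/-) changed sign. Thinning to 2000 UMIs put Aqp8 in 14.5%, 7.35%, 0.858% and 0.559% and Slc4a4 in 3.23%, 8.82%, 11.2% and 15.8% of Progenitor.2 cells, with both wildtype libraries still above both Tnfr2-/- libraries for Aqp8 and below them for Slc4a4.

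The numbers of all genes past 2-fold, higher and lower, were 146 and 216 (untreated genotypes), 306 and 387 (genotypes with TNF), 148 and 63 (TNF in wildtype) and 341 and 480 (TNF in Tnfr2-/-). With no minimum level they were 416 and 528, 583 and 999, 373 and 144, and 540 and 918. With a pseudocount of 10 CPM, 75 genes were higher between untreated genotypes, 199 higher and 210 lower between genotypes with TNF, and 221 higher and 240 lower with TNF in Tnfr2-/-. Without the Absorptive class the lower count of untreated genotypes was 79, and TNF in wildtype gave 235 and 24. Without Progenitor.2 the counts were 102 and 154 (genotypes with TNF), 161 lower (TNF in wildtype), and 88 and 56 (TNF in Tnfr2-/-). TMM factors gave 308 and median-of-ratios factors 299 lower genes for TNF in Tnfr2-/-. The cause of these shifts was not tested beyond the settings' own construction. No paired analysis was possible because each group had 1 library, and no replicate could be left out.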
